A study of Rattus norvegicus with 45 samples.

Results

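The cytochrome P450 3A enzymes of the rat liver oxidise steroid hormones, bile acids and a large share of drugs and other foreign compounds. Their genes are classic targets of the pregnane X receptor (Nr1i2), a nuclear receptor that binds foreign compounds and steroids, pairs with the retinoid X receptor and attaches to repeated half-sites in the promoters of its targets. The related constitutive androstane receptor (Nr1i3), known above all for the induction of Cyp2b genes, can bind many of the same sites. The 4 genes of the family with a probe set of their own, called members here, were followed through every group of the series. Cyp3a23-3a1 is the steroid- and drug-inducible form, and Cyp3a2 is a form known to predominate in adult male rats. Cyp3a18 is another steroid hydroxylase with higher levels in males, and Cyp3a9 is known to be higher in female livers. A probe set was taken wherever the array's annotation lists the symbol of a member, which gave 4 of the 31099 probe sets in the table, 1 for each gene, or 4 of 14217 genes with a probe set of their own.

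The livers came from male Sprague-Dawley rats, 10 weeks old, dosed by gavage, and liver RNA was hybridised to Affymetrix Rat Genome 230 2.0 arrays. There were 45 arrays in 9 groups of 5: myclobutanil, triadimefon and control rats at 6 h, 24 h and 14 days of exposure. Myclobutanil and triadimefon are triazole fungicides, given at 225 and 175 mg/kg/day, doses that are stated for the series as a whole and not for single samples. No genetic change is given for any group, and the vehicle of the controls is not given in the sources used here; the labels also speak of 15 livers and of 3 rats per group, and the titles were followed. The 5 arrays of a group may therefore not come from 5 animals, and n, every SD, SE and p below count arrays.

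Each value is the score that the authors deposited. The scale is logarithmic in type but its base is not given, so a step of 1 unit means a 2-fold change under log2 and a 2.72-fold change under the natural logarithm. The arrays' medians lie between -0.011 and 0.033, but their 99th percentiles run between 2.69 and 3.52, so bright probe sets sit higher on some arrays than on others. The control 24 h array of replicate 2 holds the highest of these percentiles. By mean score the members lie within the top 0.203% to 3.71% of the 31042 probe sets tested, and differences are therefore given as deposited and, beside them, after quantile normalization, which makes the distributions of all arrays equal. Of 10 hepatocyte markers such as Alb, 9 were measured, and their mean score lay between 3.78 and 4.94 over the control arrays. In whole liver, a change in the number of cells of a type cannot be told apart from a change in RNA per cell.

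The members lie on chromosome 12 of the GRCr8 assembly. Cyp3a2 and Cyp3a23-3a1 are direct neighbours among its protein-coding genes, Cyp3a18 is in the same cluster, and Cyp3a9 lies apart, as does Cyp3a62. Cyp3a73 and Cyp3a2l1 also lie in the cluster and have no probe set of their own. The 250 bases before each annotated start are shown because the genes are set against each other below; they come from RefSeq and all 4 members had an entry. They are Cyp3a23-3a1 at chr12:14398804-14399053 on the minus strand, Cyp3a2 at chr12:14343858-14344107 on the minus strand, Cyp3a9 at chr12:21960161-21960410 on the minus strand and Cyp3a18 at chr12:13994062-13994311 on the plus strand. Each is written 5′ to 3′ along its gene, and capitals mark a match to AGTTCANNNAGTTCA, a direct repeat of half-sites with a spacer of 3 bases, which reads on the opposite strand.
Cyp3a23-3a1: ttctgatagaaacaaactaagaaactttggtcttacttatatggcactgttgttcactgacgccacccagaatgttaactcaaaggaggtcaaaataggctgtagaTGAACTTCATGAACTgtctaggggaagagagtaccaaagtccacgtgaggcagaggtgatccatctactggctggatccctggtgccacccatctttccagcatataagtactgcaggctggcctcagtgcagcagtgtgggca
Cyp3a2: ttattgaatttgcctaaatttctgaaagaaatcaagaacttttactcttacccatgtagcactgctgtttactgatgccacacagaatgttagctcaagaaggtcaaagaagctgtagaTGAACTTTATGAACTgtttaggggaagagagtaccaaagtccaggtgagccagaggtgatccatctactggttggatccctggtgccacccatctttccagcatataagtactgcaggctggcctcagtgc
Cyp3a9: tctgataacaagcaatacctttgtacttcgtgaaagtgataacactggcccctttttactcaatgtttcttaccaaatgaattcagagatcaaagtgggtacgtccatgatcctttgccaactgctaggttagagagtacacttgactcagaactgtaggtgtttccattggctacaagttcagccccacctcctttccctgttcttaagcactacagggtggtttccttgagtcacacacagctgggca
Cyp3a18: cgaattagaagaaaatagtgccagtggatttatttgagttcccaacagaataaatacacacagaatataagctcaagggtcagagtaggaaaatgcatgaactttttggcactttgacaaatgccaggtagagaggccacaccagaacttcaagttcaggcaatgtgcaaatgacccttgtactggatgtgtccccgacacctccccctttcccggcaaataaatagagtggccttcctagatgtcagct

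The repeat was found once in Cyp3a23-3a1, as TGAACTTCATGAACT from 144 to 130 bases before the start, and once in Cyp3a2, as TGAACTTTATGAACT from 131 to 117 bases before it. The 2 sites differ by C8T, counted from 1 at the 5′ end of the site as printed, with the base of Cyp3a23-3a1 first. Both strands of this window were searched in 27457 genes, and these 2 were the only genes with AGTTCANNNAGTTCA, a share of 0.00728%. The other spellings of the direct repeat with 3 spacer bases, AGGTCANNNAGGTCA, AGGTCANNNAGTTCA and AGTTCANNNAGGTCA, were in no member, and any of the 4 spellings occurred in 10 genes or 0.0364%. Direct repeats with a spacer of 4 bases (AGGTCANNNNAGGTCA, AGGTCANNNNAGTTCA, AGTTCANNNNAGGTCA, AGTTCANNNNAGTTCA) occurred in 5 genes or 0.0182%, and everted repeats with a spacer of 6 bases (TGAACTNNNNNNAGGTCA, TGAACTNNNNNNAGTTCA, TGACCTNNNNNNAGGTCA, TGACCTNNNNNNAGTTCA) in 1 gene or 0.00364%, in neither case a member. Across the window, Cyp3a23-3a1 and Cyp3a2 were identical at 207 of 235 aligned bases (88.1%), whereas the other pairs of members were identical at 61.0% to 63.8%.

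Cyp3a23-3a1 was higher under both compounds at 24 h and 14 days, on every array. At 24 h its scores were 4.34, 4.02, 4.29, 4.28 and 3.93 under myclobutanil, 4.06, 4.32, 4.27, 3.99 and 4.43 under triadimefon and 3.32, 3.93, 3.40, 3.38 and 3.47 in controls. Every treated array lay above every control array, though myclobutanil replicate 5 did so only narrowly, at 3.934 against 3.928 in control replicate 2. The difference from control was 0.67 ± 0.15 score units for myclobutanil (SE, n = 5 per group; limma adjusted p = 0.00219) and 0.71 ± 0.15 for triadimefon (limma adjusted p = 0.00166). After quantile normalization the differences were 0.87 and 0.88, with limma adjusted p of 5.34e-12 and 1.46e-11.

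At 14 days the scores of Cyp3a23-3a1 were 4.01, 4.72, 4.41, 4.69 and 3.97 under myclobutanil, 4.14, 4.50, 4.41, 4.04 and 4.37 under triadimefon and 3.80, 3.27, 3.40, 3.32 and 3.67 in controls. The groups again did not overlap with the controls, and the myclobutanil arrays spread more widely (SD 0.36, n = 5) than the triadimefon arrays (SD 0.20, n = 5). Cyp3a23-3a1 rose by 0.86 ± 0.15 under myclobutanil (limma adjusted p = 0.000768) and by 0.80 ± 0.15 under triadimefon (limma adjusted p = 0.000699). After quantile normalization the myclobutanil difference was 0.62 and the triadimefon difference 0.83. The myclobutanil arrays of this time had a mean 99th percentile of 3.16, against 3.00 in the controls, values that quantile normalization brings together. When only the arrays of the 2 groups compared were fitted, the myclobutanil rise of Cyp3a23-3a1 was at a limma adjusted p of 0.05 and no longer under it.

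At 6 h Cyp3a23-3a1 had scores of 3.51, 3.96, 3.61, 3.96 and 3.85 under myclobutanil, 3.82, 3.70, 3.91, 3.45 and 3.80 under triadimefon and 3.21, 3.70, 3.72, 2.98 and 3.18 in controls. All treated arrays lay above the control mean, but the groups overlapped, since control arrays 2 and 3 reached 3.70 and 3.72. The differences of 0.42 ± 0.15 for myclobutanil and 0.38 ± 0.15 for triadimefon had limma adjusted p of 0.279 and 0.262. After quantile normalization they were 0.55 (limma adjusted p = 1.43e-06) and 0.45 (limma adjusted p = 4.81e-05), and all 5 arrays of each compound lay above every control. The raw array files of the 6 h myclobutanil replicates 3 to 5 and triadimefon replicates 1 to 3 end in 12, those of controls 2 and 3 in 31 and 21, and the rest of that time in 11, a mark that the labels do not explain. With arrays of ending 11 alone, 2 of each compound and 3 controls, the differences at 6 h were 0.61 for myclobutanil (limma adjusted p = 0.51) and 0.50 for triadimefon (limma adjusted p = 0.83), on the scores as deposited.

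Cyp3a2, the neighbouring gene, showed smaller differences. At 24 h its scores were 4.18, 3.87, 4.07, 4.20 and 3.78 under myclobutanil, 3.85, 4.20, 4.07, 3.63 and 4.15 under triadimefon and 3.63, 4.10, 3.83, 3.69 and 3.89 in controls. Only 2 of 5 arrays of each compound lay above every control. The differences were 0.19 ± 0.15 for myclobutanil and 0.15 ± 0.15 for triadimefon (limma adjusted p = 0.493 and 0.601). After quantile normalization they were 0.38 and 0.28, with limma adjusted p of 0.000463 and 0.0132, so the calls of Cyp3a2 at 24 h depend on how the arrays are scaled.

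At 14 days Cyp3a2 had scores of 4.05, 4.64, 4.24, 4.61 and 3.88 under myclobutanil, 3.96, 4.32, 4.24, 3.78 and 4.19 under triadimefon and 4.05, 3.64, 3.15, 3.68 and 3.81 in controls. For each compound 3 of 5 arrays lay above every control, and control array 3 was the lowest array of all. Cyp3a2 rose by 0.62 ± 0.15 under myclobutanil (limma adjusted p = 0.0357), whereas the triadimefon difference of 0.43 ± 0.15 did not pass (limma adjusted p = 0.0737). After quantile normalization the differences were 0.39 (limma adjusted p = 0.00344) and 0.44 (limma adjusted p = 0.000188). The myclobutanil call was lost when any of control arrays 2, 3, 4 or 5 or myclobutanil arrays 2 or 4 was left out: the difference was 0.61, 0.49, 0.62 and 0.65 without those controls and 0.53 and 0.54 without those myclobutanil arrays, with limma adjusted p between 0.05 and 0.20. Without control array 1 the triadimefon difference was 0.53 and passed (limma adjusted p = 0.038). At 6 h the differences of Cyp3a2 were 0.07 for both compounds (limma adjusted p = 0.959 and 0.931), with 3 of 5 arrays of each above the control mean. Quantile normalization gave 0.18 for myclobutanil and 0.11 for triadimefon at 6 h (limma adjusted p = 0.317 and 0.585).

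Cyp3a18 had scores above the controls under both compounds at 24 h. At 24 h its scores were 4.08, 3.74, 3.96, 3.90 and 3.61 under myclobutanil, 3.77, 4.11, 3.96, 3.72 and 3.77 under triadimefon and 3.42, 3.61, 3.23, 3.43 and 3.45 in controls. All 5 arrays of each compound lay above every control, though myclobutanil replicate 5 only just, at 3.611 against 3.61 in control replicate 2. How many of all probe sets separate in this way was not counted, here or for the other members. The differences of 0.43 ± 0.19 for myclobutanil and 0.44 ± 0.19 for triadimefon did not pass as deposited (limma adjusted p = 0.166 and 0.156). After quantile normalization they were 0.59 and 0.57 and passed (limma adjusted p = 0.0117 and 0.0216).

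At 14 days Cyp3a18 had scores of 3.63, 4.20, 3.84, 4.31 and 3.63 under myclobutanil, 3.67, 4.13, 4.01, 3.75 and 4.05 under triadimefon and 3.63, 1.96, 3.03, 3.28 and 3.45 in controls. Control array 2 stood far below the other controls, and 3 of 5 myclobutanil and 5 of 5 triadimefon arrays lay above every control. Cyp3a18 rose by 0.85 ± 0.19 under myclobutanil (limma adjusted p = 0.0174) and by 0.85 ± 0.19 under triadimefon (limma adjusted p = 0.00489). Without control array 2 both differences were 0.57; the myclobutanil rise was then lost (limma adjusted p = 0.07) and the triadimefon rise kept (limma adjusted p = 0.027). The myclobutanil call was also lost without myclobutanil array 2 (0.78) or 4 (0.75), and both calls when only the 2 groups compared were fitted (limma adjusted p = 0.22 and 0.067). After quantile normalization the differences at 14 days were 0.63 for myclobutanil and 0.79 for triadimefon and passed (limma adjusted p = 0.0411 and 0.00147). At 6 h the differences were 0.17 and 0.20 for myclobutanil and triadimefon (limma adjusted p = 0.906 and 0.767). Quantile normalization gave 0.25 and 0.23 at 6 h (limma adjusted p = 0.623 and 0.583).

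Cyp3a9 gave the largest single difference among the members. At 24 h its scores were 2.78, 2.16, 2.23, 2.01 and 2.00 under myclobutanil, 2.43, 2.94, 2.78, 2.76 and 2.74 under triadimefon and 1.65, 1.30, 2.09, 0.88 and 1.75 in controls. All triadimefon arrays lay above every control, as did 3 of 5 myclobutanil arrays. Cyp3a9 rose by 1.19 ± 0.23 under triadimefon (limma adjusted p = 0.000828), which ranks 3 among the 31042 probe sets by size of rise in that comparison. Under myclobutanil the difference was 0.70 ± 0.23 (limma adjusted p = 0.0502), just outside the threshold of 0.05. After quantile normalization the triadimefon difference was 1.30 and the myclobutanil difference 0.77, and both passed (limma adjusted p = 8.95e-05 and 0.0154).

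At 14 days Cyp3a9 had scores of 1.43, 2.26, 1.86, 1.71 and 1.87 under myclobutanil, 2.02, 2.18, 2.24, 2.12 and 2.28 under triadimefon and 1.55, 1.03, 2.02, 1.40 and 1.31 in controls. The triadimefon arrays lay close together (SD 0.10, n = 5), and 4 of 5 of them, but only 1 myclobutanil array, lay above every control. The differences were 0.36 ± 0.23 for myclobutanil (limma adjusted p = 0.52) and 0.71 ± 0.23 for triadimefon (limma adjusted p = 0.0547), and neither passed as deposited. Quantile normalization gave 0.25 and 0.65, and again neither passed (limma adjusted p = 0.674 and 0.0506). At 6 h the arrays held 1.67, 2.62, 1.38, 1.87 and 2.16 under myclobutanil, 2.32, 1.98, 2.26, 1.13 and 1.89 under triadimefon and 1.49, 2.04, 1.26, 0.57 and 1.46 in controls. The groups overlapped widely, with differences of 0.58 ± 0.23 and 0.55 ± 0.23 (limma adjusted p = 0.413 and 0.321). With quantile normalization these were 0.59 and 0.53 (limma adjusted p = 0.219 and 0.237). Cyp3a9 was the member with the widest spread within groups (pooled SD 0.38, n = 45 arrays), and quantile normalization left that at 0.36, whereas the pooled SD of Cyp3a23-3a1 was 0.24 as deposited and 0.11 after it.

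**Figure D1:**
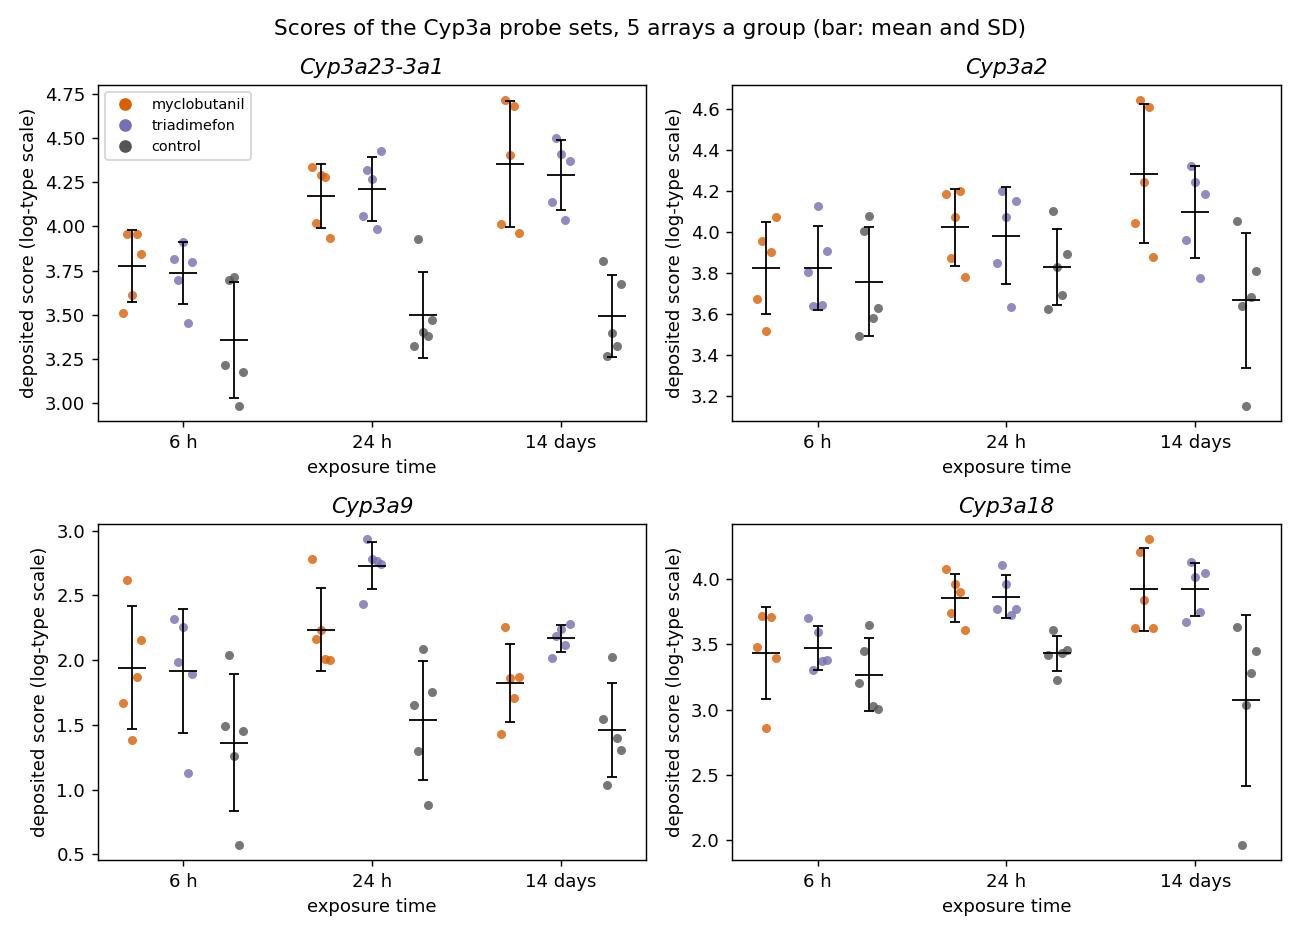
Deposited scores (vertical axis, log-type scale) of the 4 genes at 6 h, 24 h and 14 days, in 1 panel per gene; each point is an array, coloured by myclobutanil, triadimefon or control, and bars give the mean and SD of 5 arrays. The treated arrays of Cyp3a23-3a1 lie above all controls at 24 h and 14 days, Cyp3a9 is highest under triadimefon at 24 h (2.43 to 2.94), and 1 control array of Cyp3a18 at 14 days lies at 1.96.

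Counted over the members as deposited, none of 4 passed at 6 h for either compound (2 of 4 at an unadjusted p under 0.05 for each), against 0.271% of all probe sets called higher for myclobutanil and 0.738% for triadimefon. At 24 h 1 of 4 rose under myclobutanil, where 3.05% of all probe sets rose, and 2 of 4 under triadimefon, where 2.24% did. At 14 days 3 of 4 rose under myclobutanil, where 0.734% of all probe sets rose, and 2 of 4 under triadimefon, where 3.89% did. No member fell in any comparison with control. Of all probe sets 0.11%, 5.42% and 0.058% fell under myclobutanil and 0.177%, 5.75% and 2.8% under triadimefon at 6 h, 24 h and 14 days. The shares that fell after quantile normalization were 0.564%, 4.78% and 0.399% under myclobutanil and 0.96%, 4.58% and 4.49% under triadimefon. All 24 differences from control were above 0, between 0.07 and 1.19. After quantile normalization, 1 of 4 rose at 6 h under each compound (Cyp3a23-3a1; background 0.857% and 1.71% for myclobutanil and triadimefon), 4 of 4 at 24 h under each (background 6.05% and 4.45%), and 3 of 4 at 14 days under each (background 0.715% and 4.66%). At each time both compounds are set against the same 5 control arrays, so their results are not independent of each other. Without the 2 control arrays in doubt, replicate 2 at 24 h and replicate 2 at 14 days, a choice made after seeing the data, 7 of the 8 calls as deposited stayed under the threshold; the rise of Cyp3a18 under myclobutanil at 14 days was 0.573 with a limma adjusted p of 0.052.

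**Figure D2:**
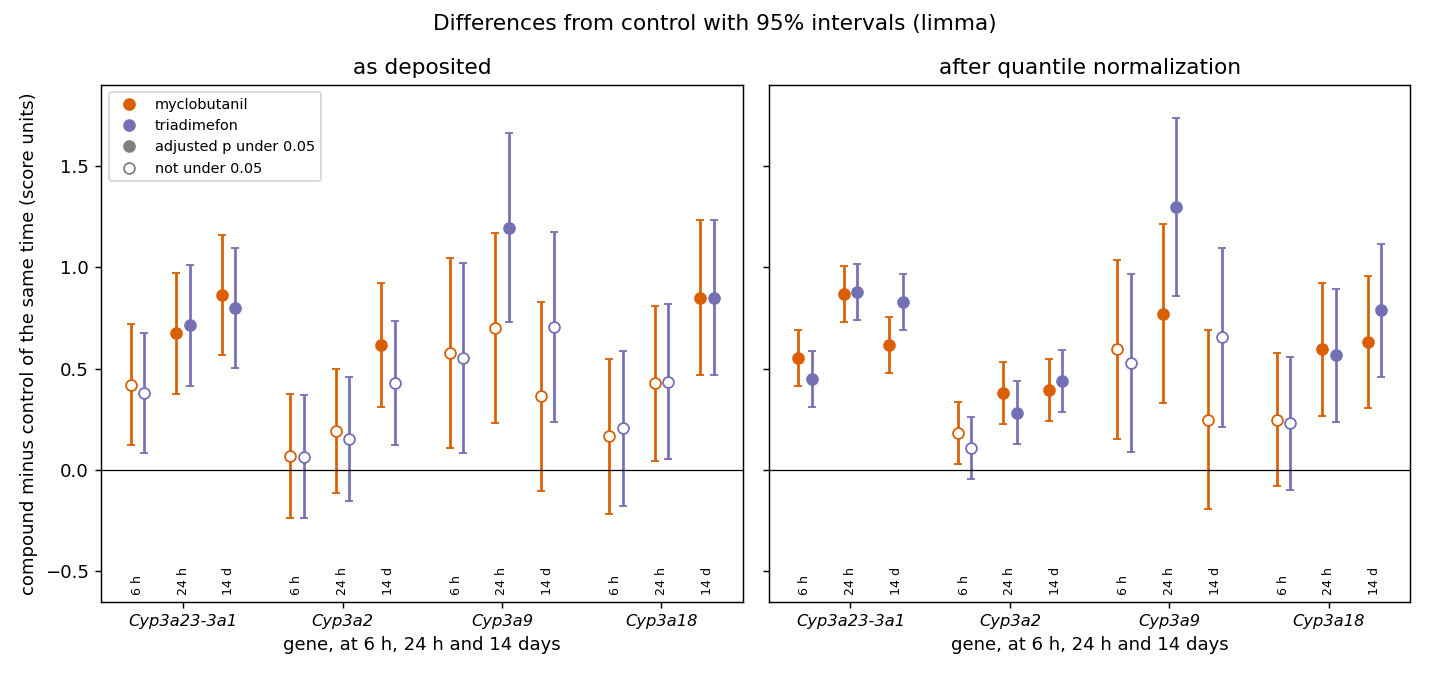
Differences from the controls of the same time (vertical axis, score units) with 95% intervals from limma, for each gene at 6 h, 24 h and 14 days, as deposited on the left and after quantile normalization on the right; filled points passed an adjusted p under 0.05. As deposited 8 of 24 points are filled and after quantile normalization 16 of 24, and all 24 lie above 0 in both panels.

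Within groups, the score of Cyp3a23-3a1 followed the 99th percentile of its array with Pearson's r = 0.85 and Spearman's rho = 0.83 over 45 arrays (permutation p = 1e-05 for each, the smallest 100000 shuffles can give; adjusted p = 5e-05 and 4e-05 over 20 relations). Without the 2 arrays farthest from the median percentile r was 0.82. For Cyp3a2 r was 0.81 and rho 0.82 (permutation p = 1e-05 for each; adjusted p = 5e-05 and 4e-05), and r was 0.81 without the 2 arrays. Cyp3a18 had r = 0.42 and rho = 0.59 (permutation p = 0.0051 and 2e-04; adjusted p = 0.016 and 0.00067; r = 0.38 without the 2 arrays). Cyp3a9 had r = 0.32 and rho = 0.29 (permutation p = 0.071 and 0.088; adjusted p = 0.11 and 0.16; r = 0.48 without the 2 arrays). After quantile normalization the 4 r values lay between -0.26 and 0.16. The mean 99th percentile was 2.94 for myclobutanil, 2.93 for triadimefon and 3.10 for controls at 24 h, the time at which quantile normalization raised every difference.

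**Figure D3:**
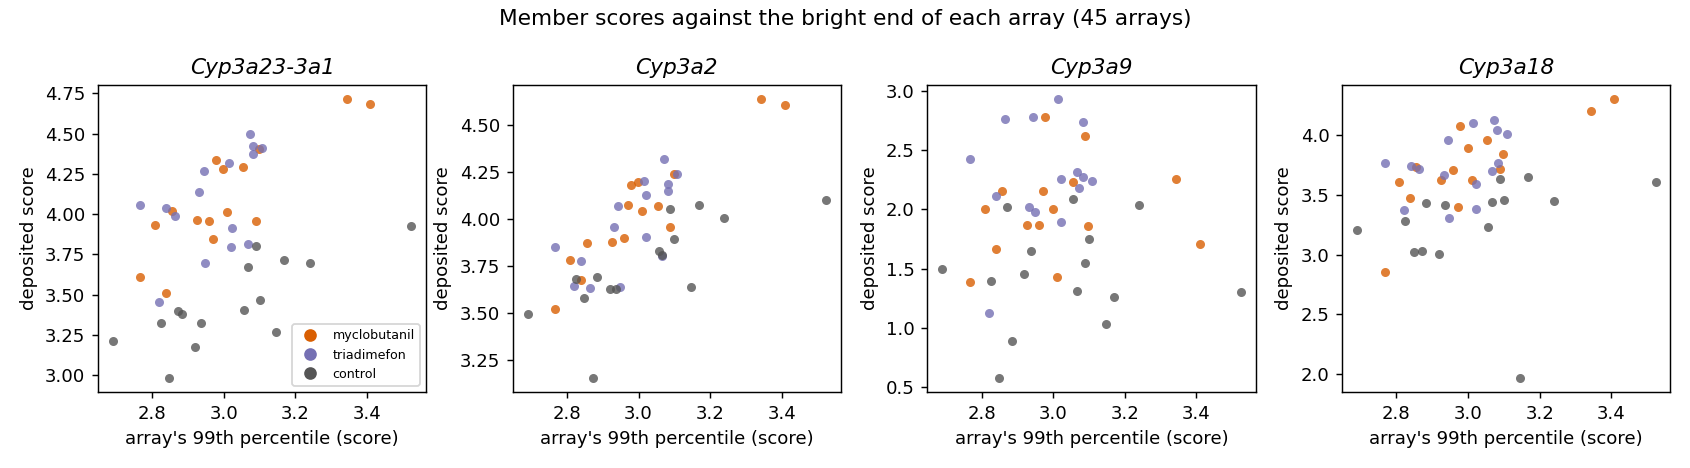
Deposited score of each gene (vertical axis) against the 99th percentile of all scores of the same array (horizontal axis), for 45 arrays coloured by myclobutanil, triadimefon or control. Within groups the points of Cyp3a23-3a1 and Cyp3a2 climb with the percentile (r = 0.85 and 0.81), those of Cyp3a9 and Cyp3a18 less closely (r = 0.32 and 0.42).

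The gap between the scores of 2 members on the same array cancels a shift of the whole array, though not a stretch of its bright end, and only a change of the gap can be read, since probe sets differ in brightness. Quantile normalization moved some of these changes, and 3 of the 36 turned in sign, none of them near the threshold. The gap of Cyp3a23-3a1 minus Cyp3a2 averaged 0.15 ± 0.05 under myclobutanil, 0.23 ± 0.09 under triadimefon and -0.33 ± 0.10 in controls at 24 h (SD, n = 5 each). At that time all 5 arrays of each compound had a larger gap than every control, so Cyp3a23-3a1 differed from control by 0.48 more than Cyp3a2 under myclobutanil and by 0.56 more under triadimefon. Exact two-sided permutation tests over 252 splits of 5 against 5 arrays gave p = 0.0079 for both, the smallest value possible, and 0.057 after adjustment over the 36 gaps tested. At 6 h the gaps were -0.05 ± 0.14 under myclobutanil, -0.09 ± 0.12 under triadimefon and -0.40 ± 0.13 in controls, again without overlap (unequal change 0.35 and 0.31; exact permutation p = 0.0079, adjusted p = 0.057 for both). At 14 days they were 0.07 ± 0.07, 0.20 ± 0.04 and -0.17 ± 0.25 for myclobutanil, triadimefon and control, with overlap, and the unequal changes of 0.25 and 0.37 had exact permutation p of 0.071 and 0.04 (adjusted p = 0.18 and 0.14).

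Control array 3 of 14 days, on which Cyp3a2 was lowest, set much of that spread: without it the unequal changes were 0.35 and 0.47 and both passed (exact permutation, adjusted p = 0.032). Without control array 2 of 24 h the unequal changes at 24 h were 0.52 and 0.60 (exact permutation, adjusted p = 0.041). Without control array 3 of 24 h they were 0.455 and 0.535 (exact permutation, adjusted p = 0.048). Both passed there, but they already had the smallest p with all arrays. Only their adjusted p fell, because other gaps of the 36 reached the smallest p too. Unequal changes of other pairs that passed only without 1 of these 3 control arrays are given with the dependence on processing. A further gap without overlap was Cyp3a2 minus Cyp3a9 under triadimefon at 24 h, 1.25 against 2.29 in controls (unequal change -1.04; exact permutation p = 0.0079, adjusted p = 0.057). In all, 0 of 36 unequal changes passed after adjustment, as deposited or after quantile normalization, and 5 of 36 reached the smallest p as deposited. Since only 252 splits exist and 36 gaps were tested, a single gap at the smallest p could not pass on its own. How far the probe sets of Cyp3a23-3a1 and Cyp3a2 pick up each other's transcripts was not tested, since probe sequences were not used here. The same holds for all members and for transcripts of other Cyp3a genes, such as Cyp3a2l1 and Cyp3a73.

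**Figure D4:**
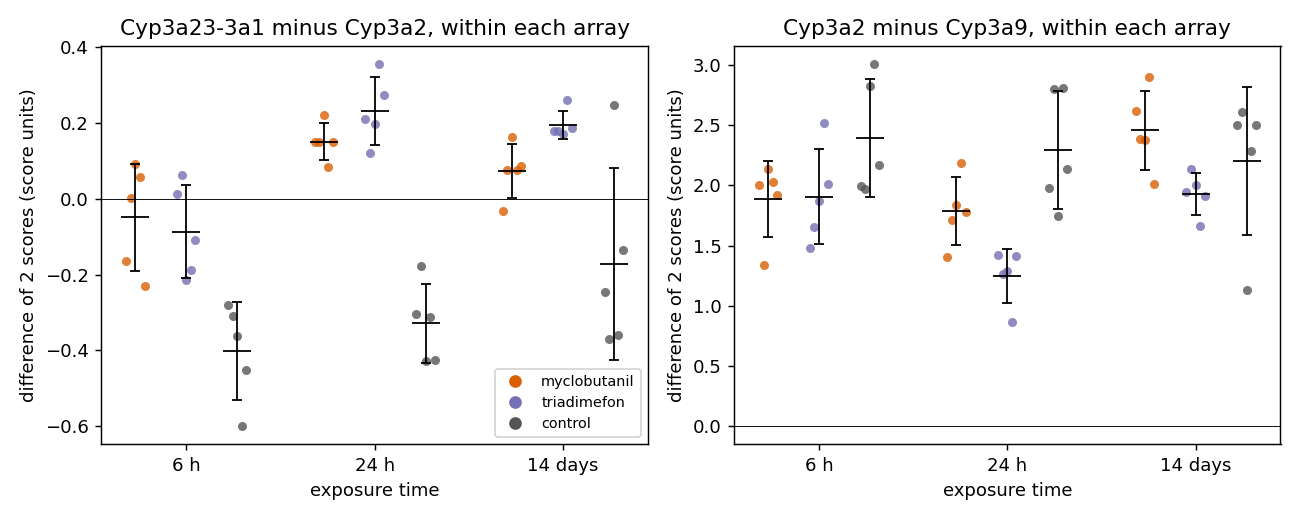
Difference between the scores of 2 genes on the same array (vertical axis, score units) at 6 h, 24 h and 14 days; each point is an array of the myclobutanil, triadimefon or control group, and bars give mean and SD of 5 arrays. For Cyp3a23-3a1 minus Cyp3a2, on the left, both compounds lie above all controls at 6 and 24 h (means 0.15 and 0.23 against -0.33 at 24 h), and for Cyp3a2 minus Cyp3a9, on the right, triadimefon lies below all controls at 24 h (1.25 against 2.29).

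Triadimefon and myclobutanil, given at different doses, were also set against each other at each time. None of the 12 comparisons of a member passed with limma as deposited (1 of 12 at an unadjusted p under 0.05), where 0.251%, 1.06% and 0.332% of all probe sets differed in either direction at 6 h, 24 h and 14 days. None of 12 passed after quantile normalization either, where 0.754%, 3.6% and 0.941% did. The one at an unadjusted p under 0.05 as deposited was Cyp3a9 at 24 h, with triadimefon minus myclobutanil at 0.49 (95% interval 0.03 to 0.96; limma adjusted p = 0.42). All 5 triadimefon arrays lay above the myclobutanil mean and 2 of 5 above every myclobutanil array. At 14 days the difference for Cyp3a9 was 0.34 (95% interval -0.13 to 0.81; limma adjusted p = 0.552). For Cyp3a23-3a1 the intervals were -0.34 to 0.26 at 6 h, -0.26 to 0.34 at 24 h and -0.36 to 0.23 at 14 days, and for Cyp3a18 they were -0.34 to 0.42, -0.37 to 0.39 and -0.38 to 0.38. For Cyp3a2 they were -0.31 to 0.30, -0.35 to 0.27 and -0.49 to 0.12. After quantile normalization all 5 triadimefon arrays lay above all myclobutanil arrays for Cyp3a23-3a1 at 14 days, with a difference of 0.21 (limma adjusted p = 0.13).

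The effects of a compound were then compared between times. As deposited, none of 24 such comparisons passed with limma (4 of 24 at an unadjusted p under 0.05), so the larger differences seen later are not shown to differ from those at 6 h. The share of all probe sets that passed in either direction was 1.75%, 4.56% and 0.335% under myclobutanil and 3.13%, 12.7% and 1.96% under triadimefon for 24 h against 6 h, 14 days against 24 h, and 14 days against 6 h. Cyp3a18 had the largest: its difference from control was 0.68 larger at 14 days than at 6 h under myclobutanil (95% interval 0.14 to 1.23; limma adjusted p = 0.309) and 0.64 larger under triadimefon (95% interval 0.10 to 1.19; limma adjusted p = 0.234). The triadimefon effect on Cyp3a9 was 0.64 larger at 24 h than at 6 h (95% interval -0.02 to 1.30; limma adjusted p = 0.29) and differed by -0.49 between 14 days and 24 h (95% interval -1.15 to 0.17; limma adjusted p = 0.313). After quantile normalization 2 of 24 passed, both for Cyp3a23-3a1 under triadimefon: the effect was larger by 0.43 at 24 h (limma adjusted p = 0.00659) and by 0.38 at 14 days (limma adjusted p = 0.0127) than at 6 h. Of all probe sets 4.03%, 3.89% and 0.751% passed there under myclobutanil and 3.5%, 11.4% and 4.77% under triadimefon, in the same order of times. Among the controls none of 12 comparisons between times passed (0 of 12 at an unadjusted p under 0.05), and the differences lay between -0.36 and 0.17, where 2.78%, 0.238% and 3.33% of all probe sets passed for 24 h against 6 h, 14 days against 24 h, and 14 days against 6 h.

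From array to array within groups, 5 of the 6 pairs of members were related as deposited and 2 of 6 after quantile normalization, at an adjusted p of r under 0.05. The closest pair was Cyp3a23-3a1 and Cyp3a2, with r = 0.87 and rho = 0.87 over 45 arrays (permutation p = 1e-05 for each; adjusted p = 5e-05 and 4e-05; r = 0.87 without the 2 outermost arrays), and after quantile normalization r was 0.34 (permutation p = 0.17). The pair Cyp3a23-3a1 and Cyp3a18 had r = 0.71 and rho = 0.79 (permutation p = 1e-05 for each), and after quantile normalization r = 0.65 and rho = 0.45 (permutation p = 0.0065 and 0.0096; adjusted p = 0.016 and 0.024), but r = 0.35 without the 2 outermost arrays. Cyp3a2 and Cyp3a18 had r = 0.62 and rho = 0.74 (permutation p = 0.00036 and 1e-05), and r = 0.52 and rho = 0.52 after quantile normalization (permutation p = 0.022 and 0.0015; adjusted p = 0.045 and 0.0043). The pairs with Cyp3a9 had lower r. It was 0.45 with Cyp3a23-3a1, 0.39 with Cyp3a18 and 0.29 with Cyp3a2 as deposited (permutation p = 0.0061, 0.016 and 0.075; adjusted p = 0.016, 0.035 and 0.11). With quantile normalization these were 0.38, 0.24 and -0.01 (permutation, adjusted p = 0.077, 0.22 and 0.94). These relations share the array, its scaling and its animal.

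Over all 45 arrays, the genes whose scores were most like those of each member were ranked by Pearson's r among 9495 genes, as a description that mixes the treatment groups, their times and the scaling of the arrays. For Cyp3a23-3a1 they were Ephx1, a microsomal epoxide hydrolase (r = 0.89), Ugt2b1, a glucuronosyltransferase (r = 0.87), and Agpat4, an acyltransferase of phospholipid synthesis (r = 0.86). For Cyp3a2 they were Cyb5a, the cytochrome b5 that passes electrons to P450 enzymes (r = 0.90), Cyp2c6v1, a P450 (r = 0.89), and Gstm1, a glutathione transferase (r = 0.89). After quantile normalization the r values of those 3 were 0.75, 0.71 and 0.67, whereas the 3 of Cyp3a23-3a1 were at 0.85, 0.86 and 0.90. For Cyp3a9 they were Ugt2a1, a glucuronosyltransferase (r = 0.76), Tex2 (r = 0.72) and Agpat4 (r = 0.71). For Cyp3a18 they were Gstm2, a glutathione transferase (r = 0.76), Ugt2b1 (r = 0.74) and Ephx1 (r = 0.73). Within groups, in the same order of genes, r was 0.79, 0.54 and 0.49 for Cyp3a23-3a1 and 0.91, 0.85 and 0.90 for Cyp3a2. It was 0.46, 0.44 and 0.33 for Cyp3a9 and 0.64, 0.29 and 0.39 for Cyp3a18. Agpat4 had a low mean score, 0.01.

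The other drug handling genes known as targets of the pregnane X receptor or the constitutive androstane receptor were followed as a list of 24, of which 18 were measured, the Cyp3a genes left out. As deposited, 3, 9 and 8 of 18 rose under myclobutanil at 6 h, 24 h and 14 days, where 0.271%, 3.05% and 0.734% of all probe sets rose, and 2, 8 and 10 under triadimefon, where 0.738%, 2.24% and 3.89% did. The counts after quantile normalization were 5, 16 and 10 for myclobutanil, beside 0.857%, 6.05% and 0.715% of all probe sets. For triadimefon they were 5, 15 and 13, beside 1.71%, 4.45% and 4.66%. None fell against control on either scale. As deposited, the median difference of the list was 0.11, 0.36 and 0.52 for myclobutanil and 0.06, 0.28 and 0.54 for triadimefon, with medians of all probe sets between -0.01 and 0.01. The probe set of Cyp2b1 or Cyp2b2, P450 enzymes of the constitutive androstane receptor response, rose by 2.44, 2.59 and 2.63 under myclobutanil and by 2.38, 2.56 and 2.52 under triadimefon at 6 h, 24 h and 14 days (SE 0.21 each; limma adjusted p of 1.8e-09 or less). Abcb1a, a drug efflux pump, rose by 0.73 under myclobutanil and 0.44 under triadimefon at 6 h (limma adjusted p = 4.4e-06 and 0.0082). Aldh1a1, a retinal dehydrogenase, rose by 1.41 and 1.17 at 24 h (limma adjusted p = 6.3e-06 and 0.00022) and Ugt2b1 by 1.66 and 1.499 at 14 days (limma adjusted p = 3.8e-07 and 1e-06), each time under myclobutanil and triadimefon in that order.

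The transcripts of the receptors Nr1i2 and Nr1i3 passed on neither scale. The difference from control of Nr1i2, the pregnane X receptor, lay between -0.08 and 0.11 over the 6 comparisons as deposited, and that of Nr1i3, the constitutive androstane receptor, between -0.11 and 0.29 (lowest limma adjusted p = 0.075, under triadimefon at 14 days). Of 19 measured among 20 receptors and regulators of Cyp3a transcription, none rose against control as deposited, and at 24 h 2 fell under myclobutanil and 3 under triadimefon, where 5.42% and 5.75% of all probe sets fell. These were Nr3c1, the glucocorticoid receptor (-0.26 under myclobutanil and -0.33 under triadimefon), Rxrg, a retinoid X receptor (-0.22 and -0.24), and, under triadimefon, Cebpa, a liver transcription factor (-0.38), whose fall did not pass after quantile normalization (limma adjusted p = 0.055). As deposited, none fell at 6 h or 14 days, where 7, 4, 2 and 1 of 19 had an unadjusted p under 0.05 for myclobutanil and triadimefon at 6 h and for myclobutanil and triadimefon at 14 days. After quantile normalization Cebpa (-0.305, limma adjusted p = 0.042) and Ncoa1, a coactivator of nuclear receptors (-0.105, limma adjusted p = 0.034), fell under myclobutanil at 6 h. Rxra, a retinoid X receptor, fell under triadimefon at 6 h (-0.158, limma adjusted p = 0.032), and Hnf4a, a nuclear receptor of hepatocytes, rose under triadimefon at 24 h (0.188, limma adjusted p = 0.011). These 4 are named because of their calls on that scale. There 0.564% and 0.96% of all probe sets fell at 6 h under myclobutanil and triadimefon. Under triadimefon at 24 h 4.45% of all probe sets rose, beside 1 of the 19 regulators.

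Among 13 measured of 14 genes for the electron and haem supply of P450 enzymes, 3 and 2 rose at 6 h and 2 and 2 at 24 h under myclobutanil and triadimefon as deposited, and none passed at 14 days (4 and 2 at an unadjusted p under 0.05). Of all probe sets 0.271% and 0.738% rose at 6 h, 3.05% and 2.24% at 24 h and 0.734% and 3.89% at 14 days. With quantile normalization 3 and 3 rose at 6 h, 7 and 5 at 24 h and 1 and 2 at 14 days. The shares of all probe sets there were 0.857% and 1.71%, 6.05% and 4.45%, and 0.715% and 4.66%. The genes of 14 days were Cyb5a under myclobutanil (0.156, limma adjusted p = 0.015) and Cyb5a and Pgrmc1, a haem-binding partner of P450 enzymes, under triadimefon (0.203 and 0.116, limma adjusted p = 0.00019 and 0.012). Por, the reductase that passes electrons to all microsomal P450 enzymes, rose by 0.70, 0.66, 0.79 and 0.93 in those first 4 comparisons and was at 0.35 and 0.45 at 14 days. Alas1, the rate-limiting enzyme of haem synthesis, rose by 0.94, 0.81, 0.94 and 1.11 and was at 0.26 and 0.27 at 14 days. Hmox1, which breaks haem down, rose by 0.45 under myclobutanil at 6 h (limma adjusted p = 9.8e-05). At 24 h Urod, a step of haem synthesis, fell by 0.15 under myclobutanil and 0.21 under triadimefon. Ppox, another step, fell by 0.27 under triadimefon. These were 1 and 2 of 13 genes, where 5.42% and 5.75% of all probe sets fell as deposited. The fall of Urod under myclobutanil did not pass after quantile normalization (limma adjusted p = 0.053). On that scale 4.78% and 4.58% of all probe sets fell.

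Of the 15 measured among 17 sex-dependent and growth hormone-dependent liver genes, a list kept beside Cyp3a2, Cyp3a9 and Cyp3a18, no more than 2 rose and 1 fell in any comparison with control as deposited, and no more than 3 rose and 3 fell after quantile normalization. Ghr, the growth hormone receptor, was the 1 of 15 that fell at 24 h, by 0.38 under myclobutanil and 0.34 under triadimefon. Of all probe sets 5.42% and 5.75% fell there. Cux2 and A1bg, both known as female-predominant in liver, rose by 0.43 and 0.63 under triadimefon at 6 h, where 0.738% of all probe sets rose. At 14 days under triadimefon Hsd17b2 rose by 0.93 and Stat5a fell by 0.07, where 3.89% rose and 2.8% fell. Under myclobutanil none passed at 6 h or 14 days (3 of 15 at an unadjusted p under 0.05 each time). After quantile normalization 3 rose under triadimefon at 6 h, beside 1.71% of all probe sets. On that scale 2 and 3 fell at 24 h under myclobutanil and triadimefon, beside 4.78% and 4.58%. Of 18 measured among 21 other P450 enzymes of drug handling families, no more than 1 rose and 2 fell in any comparison with control as deposited, and no more than 2 rose and 3 fell after quantile normalization, beside the shares of all probe sets given with the members.

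Markers of other liver cells were read beside these results. At 24 h 5.42% of all probe sets fell under myclobutanil and 5.75% under triadimefon as deposited, and 4.78% and 4.58% after quantile normalization. At 14 days 0.734% and 3.89% rose as deposited, and 0.715% and 4.66% after quantile normalization, where 0.399% and 4.49% fell. Under myclobutanil at 6 h 0.857% rose after quantile normalization. None of 9 hepatocyte markers passed in any comparison as deposited (1 of 9 at an unadjusted p under 0.05 for each compound at 24 h), but after quantile normalization 3 fell under myclobutanil and 2 under triadimefon at 24 h and 2 under triadimefon at 14 days. All 8 measured of 10 Kupffer cell and macrophage markers fell under myclobutanil at 24 h, led by Clec4f and Cd5l (-0.80 and -0.55), and their mean score was 0.95 to 1.25 on the myclobutanil arrays and 1.31 to 1.85 on the controls. The part of this in the Cyp3a differences under myclobutanil was not tested. Under triadimefon at 24 h none of the 8 passed as deposited (0 at an unadjusted p under 0.05), and their mean score was 1.29 to 1.73. Of 5 endothelial markers 2 fell under myclobutanil at 24 h and 1 rose under triadimefon at 14 days, of 4 bile duct markers 1, Epcam, rose under both at 14 days, and none of 7 stellate cell, 5 lymphocyte and 3 erythroid markers passed in any comparison with control with limma as deposited (at most 2 of a list at an unadjusted p under 0.05). After quantile normalization Rgs5, a pericyte and stellate cell marker, rose under myclobutanil at 6 h and under triadimefon at 14 days (0.171 and 0.126), and Cd3g, a T cell marker, fell under myclobutanil at 24 h (-0.05). The endothelial and bile duct counts were the same on that scale. All 8 macrophage markers again fell under myclobutanil at 24 h, and Clec4f and C1qa also fell under it at 14 days (-0.384 and -0.253).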

How the data were processed

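Liver RNA was hybridised to 45 Affymetrix arrays. For every probe set the authors deposited 1 score from each array; how they summarised and normalized it, and the base of its logarithm, is not given in the sources used here. The scores, from -0.98 to 5.69, were used as deposited and differences are in score units. Probe sets were named through the platform annotation, and 57 Affymetrix control probe sets were left out. Groups were taken from the sample titles.

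Differences were fitted with limma 3.58.1 in R 4.3.3 over 31042 probe sets, as a model of the 9 group means with eBayes, and p-values were adjusted by Benjamini-Hochberg within each of 18 comparisons; a probe set was called at an adjusted p under 0.05. Gaps between members on 1 array were tested by exact two-sided permutation, and relations within groups by 100000 shuffles within groups, two-sided. The fit was tested on simulated data. Promoters were searched in Python 3.11.15. Alternatives were quantile normalization, equal medians, array weights, the 2 groups alone, a replicate block, the ending of array file names, a level filter, a stricter threshold and leaving out arrays. The number of arrays limits the precision, and p-values measure the spread between arrays, which may share animals.

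The members and the 12 gene lists were chosen with earlier results of these data known. All probe sets of the members were named, with the 3 most alike genes of each, the called genes with the largest changes in each list, and Por, Nr1i2, Nr1i3 and Cyp2b1 or Cyp2b2.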

Additional observations from a re-analysis of the deposited data

Results flagged for a closer look

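In 36 groups of 5 arrays, 4 genes in 9 groups, 1 array stood apart from the other 4 of its group by more than the 95% limit of Dixon's test: control replicate 2 at 24 h for Cyp3a23-3a1, with a score of 3.93, while the other controls of that time lay between 3.32 and 3.47. Chance gives about 1 such array in 20 groups. The same array has the highest 99th percentile of all arrays, 3.52. Without it the differences of Cyp3a23-3a1 from control at 24 h were 0.78 for myclobutanil and 0.82 for triadimefon.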

How the results depend on the processing

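Of 288 recomputed differences of a member from control, 248 kept their direction and side of the threshold, 32 passed only under the alternative, 8 no longer passed and 0 called values turned round; of 240 with 1 array left out, 228, 3, 9 and 0 did. Sign held in all but 2 of the 240, neither a call and both for Cyp3a2 under triadimefon at 6 h (lowest -0.01). The 144 recomputed differences between the compounds and 144 between control times never passed. As planned, quantile normalization let Cyp3a23-3a1 pass at 6 h (0.551 for myclobutanil, 0.446 for triadimefon), Cyp3a2 (0.381, 0.283), Cyp3a18 (0.594, 0.565) and Cyp3a9 under myclobutanil (0.772) at 24 h, and Cyp3a2 under triadimefon at 14 days (0.438), as well as 2 effects between times (0.431, 0.384). Cyp3a9 under myclobutanil at 24 h also passed with equal medians (0.702), the ending of file names as a covariate (0.70), only arrays of ending 11 (0.70) and only probe sets above the median level (0.70). Cyp3a9 under triadimefon at 14 days passed with equal medians (0.719), array weights (0.707), only the groups compared (0.706), ending 11 (0.706) and the level filter (0.706). With only the groups compared, Cyp3a18 passed at 24 h (0.428, 0.435), while Cyp3a23-3a1 (0.864), Cyp3a2 (0.617) and Cyp3a18 (0.85) under myclobutanil and Cyp3a18 under triadimefon (0.849) at 14 days no longer did, a fit on fewer arrays. Array weights let Cyp3a23-3a1 pass under triadimefon at 6 h (0.497) and Cyp3a2 at 14 days (0.427). Ending 11 alone lost Cyp3a2 under myclobutanil at 14 days (0.628), and an adjusted p under 0.01 lost Cyp3a2 (0.617) and Cyp3a18 (0.85) there. What caused these changes was not tested.

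The main fit did not pair arrays by replicate number. The correlation of same-numbered arrays' deviations lay between -0.37 and 0.34. Its median was highest for triadimefon and myclobutanil at 6 h, 0.16 against -0.02 for other numbers. For triadimefon and control at 14 days it was 0.13 against -0.04, so pairing at these times is not excluded. With a replicate block, Cyp3a9 passed under myclobutanil at 24 h (0.70) and under triadimefon at 14 days (0.706), no call was lost, and every count of changed probe sets stayed within 1.5 times.

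Chosen after seeing the data, leaving out both doubted control arrays lost Cyp3a18 under myclobutanil at 14 days (0.573). With each array's 99th percentile as a covariate, Cyp3a23-3a1 passed at 6 h (0.481, 0.376), Cyp3a2 (0.391, 0.356) and Cyp3a18 (0.556, 0.567) at 24 h under myclobutanil and triadimefon, Cyp3a9 under myclobutanil at 24 h (0.822), and Cyp3a2 (0.423) and Cyp3a9 (0.70) under triadimefon at 14 days; so did 3 effects of Cyp3a23-3a1, 24 h minus 6 h for both compounds (0.394, 0.544) and 14 days minus 6 h for triadimefon (0.414).

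Left out 1 at a time, arrays gave differences between 0.488 and 0.719 for Cyp3a2 and between 0.573 and 0.99 for Cyp3a18 under myclobutanil at 14 days, where calls were lost, and between 0.537 and 0.838 for Cyp3a9 under myclobutanil at 24 h, 0.302 and 0.527 for Cyp3a2 and 0.598 and 0.845 for Cyp3a9 under triadimefon at 14 days, where calls were gained. The calls of Cyp3a23-3a1 at 24 h and 14 days (between 0.629 and 0.962) and of Cyp3a9 under triadimefon at 24 h (1.032 to 1.333) held each time. With 1 array left out, some unequal changes that already had the smallest p with all arrays passed through the adjustment alone. Of 360 unequal changes recomputed this way, 13 passed, each without control replicate 2 or 3 at 24 h or 3 at 14 days. Their ranges were 0.455 to 0.518 and 0.529 to 0.598 for Cyp3a23-3a1 and Cyp3a2 and 0.203 to 0.307 and 0.20 to 0.339 for Cyp3a23-3a1 and Cyp3a18 at 24 h under myclobutanil and triadimefon, -1.18 to -0.913 for Cyp3a2 and Cyp3a9 and 0.596 to 0.947 for Cyp3a9 and Cyp3a18 at 24 h under triadimefon, 0.197 to 0.352 and 0.319 to 0.473 for Cyp3a23-3a1 and Cyp3a2 at 14 days, and -0.544 to -0.174 for Cyp3a2 and Cyp3a9 and -0.538 to -0.149 for Cyp3a2 and Cyp3a18 at 14 days under triadimefon.

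Changed probe sets numbered 118, 2628 and 246 under myclobutanil, 284, 2478 and 2076 under triadimefon, and 78, 328 and 103 between the compounds at 6 h, 24 h and 14 days. Quantile normalization gave 441 and 828 for myclobutanil and triadimefon at 6 h and 234, 1117 and 292 between them. Only the groups compared gave 1250 and 491 at 24 h, 110 for myclobutanil at 14 days, and 190 and 11 between them at 24 h and 14 days. Array weights gave 204 and 502 at 6 h, and 184 and 757 between them at 6 and 24 h. The ending covariate gave 40 and 36 at 6 h, and ending 11 alone 20 and 9 at 6 h and 8 and 35 between them at 6 h and 14 days. An adjusted p under 0.01 gave 54, 1130 and 76 for myclobutanil, 113, 944 and 600 for triadimefon, and 22, 102 and 27 between them. Without the doubted controls triadimefon gave 443, 1163 and 1340, and 137 differed between the compounds at 6 h. The percentile covariate gave 318 and 687 at 6 h, 3316 for triadimefon at 14 days, and 166 and 831 between them at 6 and 24 h. With 1 array left out the ranges were 79 to 138, 1717 to 3154 and 73 to 408 for myclobutanil, 130 to 391, 1159 to 3233 and 1014 to 2185 for triadimefon, and 24 to 85, 159 to 457 and 23 to 118 between them.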
